A study of Homo sapiens with 6 samples.

Results

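The trefoil factors and mucins studied here are 10 genes of the 60604 in the deposited count tables: the trefoil factors TFF1, TFF2 and TFF3, the secreted gel-forming mucins MUC2, MUC5AC and MUC6, and the membrane mucins MUC1, MUC13, MUC17 and MUC20. They were chosen by name, and each matched 1 Ensembl gene identifier. The cells were AGS, an established human gastric adenocarcinoma line grown in DMEM with serum, so every library came from the same tumour line and held no normal gastric cells. The control group had 3 libraries with indomethacin at 0 mM, and the treated group had 3 libraries from cells given 0.5 mM indomethacin, a cyclooxygenase inhibitor of the non-steroidal anti-inflammatory class, for 24 h. The labels name neither a vehicle nor a time for the controls, and nothing in them says that the replicates were separate cultures, so the p-values reflect how far these libraries differ from one another, and that spread may be technical. Total RNA was sequenced after removal of ribosomal RNA.

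Trefoil factors are small secreted peptides folded into clover-shaped loops by disulphide bonds, and they are released with mucins to keep the mucosal surface intact and to help it reseal after injury. In the stomach, TFF1 is made with MUC5AC by surface pit cells and TFF2 with MUC6 by neck and gland cells, whereas TFF3 and MUC2 belong to intestinal goblet cells. Gel-forming mucins are very large polymers that make the mucus layer, and membrane mucins stand on the apical cell surface. All of them carry dense sugar chains attached to serine and threonine.

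The property that makes these peptides a family can be read from the coding sequence. Each trefoil loop is shown from its first to its last cysteine codon, with cysteine codons in capitals and everything else in lower case (5′ to 3′, coding strand, from GENCODE 29 transcripts). TFF2 has a pair of loops and the others have 1.
TFF1: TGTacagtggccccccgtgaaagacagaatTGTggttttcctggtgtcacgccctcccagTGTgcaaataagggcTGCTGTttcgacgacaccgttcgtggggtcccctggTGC
TFF2 first loop: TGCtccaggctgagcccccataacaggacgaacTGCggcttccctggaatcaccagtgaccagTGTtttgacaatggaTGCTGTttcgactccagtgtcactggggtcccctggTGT
TFF2 second loop: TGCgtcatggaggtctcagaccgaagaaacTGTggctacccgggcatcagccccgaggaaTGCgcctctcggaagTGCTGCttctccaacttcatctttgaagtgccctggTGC
TFF3: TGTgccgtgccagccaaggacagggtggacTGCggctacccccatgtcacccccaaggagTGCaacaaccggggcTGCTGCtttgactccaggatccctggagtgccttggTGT
Each stretch holds 6 cysteine codons, among them an adjacent pair. The TFF1 stretch, the second TFF2 stretch and the TFF3 stretch each run over 114 bases, with 9, 9, 4, 0 and 10 codons between successive cysteine codons. The first TFF2 stretch runs over 117 bases and differs only in the first spacing, which is 10 codons. None of the 100-base windows of the TFF1, TFF2 or TFF3 transcripts occurred in another gene's transcript or repeated within its own, so no stretch of that length from these genes matches another annotated transcript.

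TFF1 and TFF2 RNA rose in the treated cells, while TFF3 stayed at the edge of detection in both groups. TFF1 went from under 2 CPM to between 15.5 and 31.1 CPM, and TFF2 went from almost no reads to a low but steady level. These are bulk libraries, so a change in the number of cells that express a gene and a change in RNA per cell cannot be told apart. CPM are counts scaled to a common library size with TMM factors, and a difference was called when edgeR's quasi-likelihood test gave a Benjamini-Hochberg adjusted p below 0.05 over all 17200 genes tested.

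TFF1 (ENSG00000160182, chromosome 21, 42362282 to 42366535, minus strand, hg38) had 1.52, 0.384 and 0.422 CPM in the control libraries and 31.1, 28.99 and 15.5 CPM in the treated libraries. The groups did not overlap, although control replicate 1 stood above the other controls and indomethacin replicate 3 was the lowest of its group. The means were 0.776 ± 0.645 CPM in controls and 25.2 ± 8.47 CPM in treated cells (SD, n = 3). The log2 fold change was 5.05 (SE 0.38, 95% interval 4.23 to 5.87, edgeR adjusted p = 8.5e-08), a 33.1-fold difference with an interval of 18.7 to 58.7. Of the 17200 genes tested, 78 had a higher log2 fold change. Without control replicate 1 the log2 fold change was 5.90.

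TFF2 (ENSG00000160181, chromosome 21, 42346357 to 42350997, minus strand) lies 11.3 kb from TFF1. It had 0, 1 and 2 counts in the control libraries and 27, 41 and 42 counts in the treated libraries. These correspond to 0, 0.0427 and 0.0938 CPM against 1.28, 2.04 and 2.52 CPM, and the groups did not overlap. Over the summed counts, 3 in controls and 110 in treated cells, the ratio of CPM was 41.3, with an exact 95% interval of 13.8 to 203.5 that covers counting error only. The fitted log2 fold change was 5.22 (SE 0.61, edgeR adjusted p = 5.5e-06), and it depends on the prior count because the control counts are so few. It was 6.04 without control replicate 3, the control library with the most TFF2 counts.

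TFF3 (ENSG00000160180, chromosome 21, 42311667 to 42315409, minus strand) is the third gene of the cluster, 30.95 kb beyond TFF2. It had 3, 3 and 0 counts in controls and 0, 1 and 0 counts in treated libraries, too few to enter the test. The summed counts of 6 and 1 give a ratio of control to treated of 5.32 with an exact 95% interval of 0.646 to 245, which includes no difference. The level of 3 counts was 0.128 to 0.180 CPM depending on the library, and TFF3 had no more than 3 counts in any library.

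**Figure D1:**
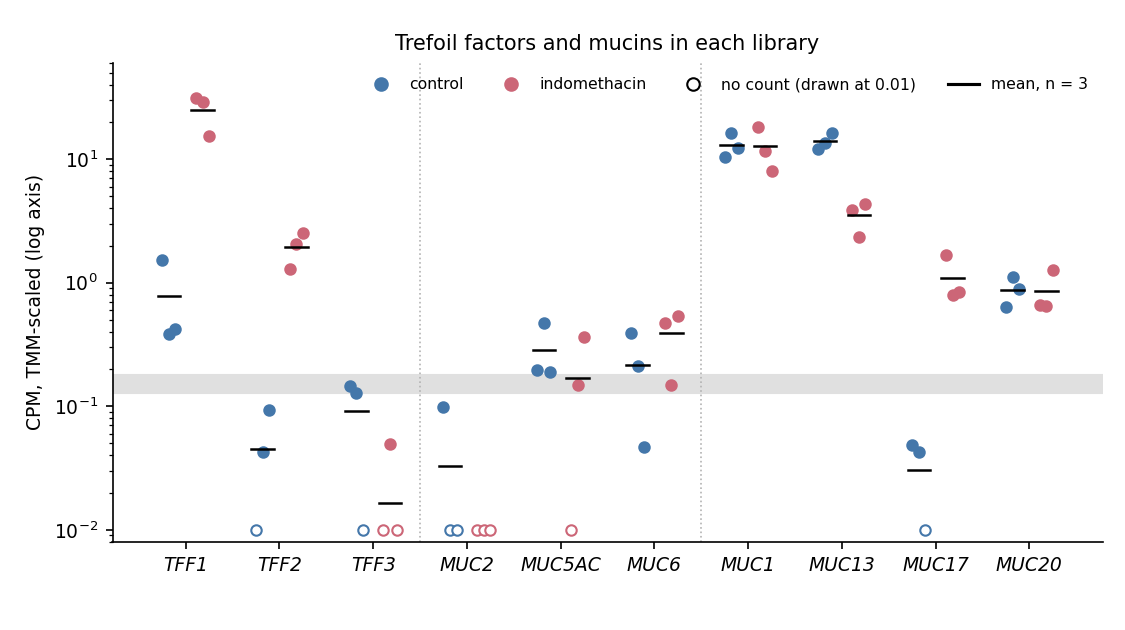
Level of each trefoil factor and mucin in every library (CPM, TMM-scaled, log axis), with 3 control and 3 indomethacin libraries per gene and a bar at each group mean. The grey band is the level of 3 counts across the libraries (0.128 to 0.180 CPM) and open circles at 0.01 are libraries with no count. TFF1, TFF2 and MUC17 sit higher and MUC13 lower in all treated libraries. MUC5AC and MUC6 lie on both sides of the band, and MUC2 lies below it.

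RNA of the gel-forming mucins was barely detected in either group. None of the 3 passed the filter on low counts, so they did not enter the main test. MUC5AC (chromosome 11, 1157953 to 1201138, plus strand), the main mucin of gastric surface mucus, had 4, 11 and 4 counts in controls and 0, 3 and 6 in treated libraries. MUC6 (chromosome 11, 1012823 to 1036718, minus strand), the gland mucin, had 8, 5 and 1 counts against 10, 3 and 9. MUC2 (chromosome 11, 1074875 to 1110511, plus strand), the goblet cell mucin, had 2, 0 and 0 counts in controls and none in treated libraries. The MUC5AC and MUC6 groups overlapped. The ratio of treated to control CPM was 0.534 for MUC5AC (exact 95% counting interval 0.213 to 1.24) and 1.77 for MUC6 (0.867 to 3.74), and both intervals include 1. A change in the partner mucins of TFF1 and TFF2 was not detectable at this depth.

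The membrane mucins did not move together. MUC17 rose from almost no reads, MUC13 fell 3.99-fold, and neither MUC1 nor MUC20 passed the test. MUC1 and MUC13 were the only mucins among the 10 genes above 2 CPM in any library.

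MUC13 (ENSG00000173702, chromosome 3, 124905442 to 124953819, minus strand) is a membrane mucin of the gut epithelium with epidermal growth factor-like domains. It had 11.97, 13.6 and 16.2 CPM in controls and 3.85, 2.34 and 4.33 CPM in treated libraries, with no overlap. The mean fell from 13.9 ± 2.16 to 3.50 ± 1.04 CPM, a log2 fold change of -2.00 (SE 0.22, 95% interval -2.46 to -1.53, edgeR adjusted p = 2.7e-06). Among the genes tested, 928 had a lower log2 fold change. MUC13 was the only member called lower.

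MUC17 (ENSG00000169876, chromosome 7, 101020072 to 101058859, plus strand) is a very large membrane mucin of the intestinal brush border. It had 1, 1 and 0 counts in controls and 35, 16 and 14 counts in treated libraries, or at most 0.0490 CPM against 1.66, 0.796 and 0.841 CPM. The groups did not overlap, and indomethacin replicate 1 held more than the other treated libraries combined. The ratio of CPM over the summed counts, 2 and 65, was 36.6, with an exact 95% counting interval of 9.74 to 309. The fitted log2 fold change was 4.92 (SE 0.70, edgeR adjusted p = 3.2e-05). Its transcript is long, so per kilobase of exon it was still a minor RNA, at 0.0749 ± 0.0333 CPM per kb in treated cells.

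MUC1 (ENSG00000185499, chromosome 1, 155185824 to 155192916, minus strand) is the widely expressed epithelial membrane mucin, which is cleaved into an extracellular part that can be shed and a membrane-bound part. It had 10.5, 16.3 and 12.2 CPM in controls and 18.4, 11.7 and 7.99 CPM in treated libraries. The treated libraries spread on both sides of the controls, and the groups overlapped. The log2 fold change was -0.03 (SE 0.25, edgeR adjusted p = 0.92), and its 95% interval of -0.56 to 0.50 covers folds from 0.677 to 1.41. MUC1 is also the member whose own repeats weigh most on read placement, because 32.5% of its 100-base windows occur more than once within its transcript. Its tandem repeat unit is 60 bases long and is shown from the GENCODE 29 transcript, where 19 exact copies lie between positions 534 and 2835.
MUC1 repeat unit: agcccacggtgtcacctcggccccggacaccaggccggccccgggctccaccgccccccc
How the counting treated reads with several placements was not given in the sources used here.

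MUC20 (ENSG00000176945, chromosome 3, 195720884 to 195741123, plus strand), a membrane mucin known to bind the receptor MET, had 0.638, 1.11 and 0.891 CPM in controls and 0.665, 0.646 and 1.26 CPM in treated libraries. The groups overlapped, and the log2 fold change was -0.07 (SE 0.40, 95% interval -0.93 to 0.80, edgeR adjusted p = 0.90). These counts are uncertain, since 27.1% of the exonic bases of MUC20 also belong to MUC20-OT1 on the same strand, and 58.1% of its 100-base windows occur in transcripts of MUC20-OT1 or the pseudogene MUC20P1. MUC20-OT1 was not called either, at 7.08 ± 1.06 CPM in controls and 9.28 ± 0.976 CPM in treated cells (log2 fold change 0.39, edgeR adjusted p = 0.061).

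Of the 10 genes, 6 were tested and 4 were called, 3 higher and 1 lower. The share called over all genes tested was 61.6%, with 30.6% higher and 31.0% lower, and the members' share of 66.7% is near that background. The groups did not overlap for the same 4 genes, while 67.0% of all genes tested had groups that did not overlap, 33.7% higher and 33.3% lower. TFF1, TFF2 and MUC17, the 3 called higher, needed their treated libraries to pass the filter on low counts. Such passage favours genes that differ, so these shares give no support of their own.

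The order of the levels per kilobase of exon changed between the groups. In controls MUC13 came first with 3.98 ± 0.616 CPM per kb, followed by MUC1 with 2.76 ± 0.631 and TFF1 with 1.58 ± 1.31, and neighbours among these overlapped. The other members were all below 0.2 CPM per kb in every control library. In treated cells TFF1 came first with 51.2 ± 17.2 CPM per kb, above TFF2 with 2.79 ± 0.894 in every library. TFF2 and MUC1, at 2.69 ± 1.11, overlapped, and MUC13 followed at 1.002 ± 0.297, below MUC1 in every library.

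Promoter sequences were at hand for 4 of the 10 genes, and the pair that was called is shown, since these membrane mucins moved in opposite directions. Each window runs from 250 bases before to 50 after the RefSeq start (GRCh38.p14), on the gene's own strand, with matches to the searched motifs in capitals. The RefSeq start of MUC13 lies 19.07 kb inside the longer gene over which its reads were counted, and that of MUC17 lies 9 bases inside.
MUC13, chr3:124934702-124935001, minus strand: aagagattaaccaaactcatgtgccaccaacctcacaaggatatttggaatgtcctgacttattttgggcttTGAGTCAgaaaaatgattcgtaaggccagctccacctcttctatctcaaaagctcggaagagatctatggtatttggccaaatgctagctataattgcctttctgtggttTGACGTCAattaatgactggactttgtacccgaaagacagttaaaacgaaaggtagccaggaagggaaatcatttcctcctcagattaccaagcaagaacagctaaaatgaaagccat
MUC17, chr7:101019831-101020130, plus strand: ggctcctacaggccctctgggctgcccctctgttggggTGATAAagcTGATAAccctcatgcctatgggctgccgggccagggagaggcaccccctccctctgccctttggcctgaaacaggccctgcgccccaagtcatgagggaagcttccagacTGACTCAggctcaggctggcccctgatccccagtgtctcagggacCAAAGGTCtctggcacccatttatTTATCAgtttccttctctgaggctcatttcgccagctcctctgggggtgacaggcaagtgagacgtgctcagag
Letters were searched on both strands: TGACGTCA for the cAMP response element, CACGTG for the E-box, TGACGTGG for the unfolded protein response and TGATGNAA for the composite site of ATF4. The others were TATAAA for the core promoter box, GGGNGTGG for KLF factors, TTTATG for CDX factors, CAAAGGTC for nuclear receptor HNF4, TGACTCA for AP-1 and the letters TGATAA for zinc finger factors of the family that holds GATA4. The cAMP response element and the unfolded protein response motif share their first 6 letters. The MUC13 window holds TGACGTCA 68 bases before the start, which 1.85% of 35116 promoters of this length hold, and 1 match to TGACTCA. The MUC17 window holds 3 matches to TGATAA, which occurs at least once in 7.53% of promoters, as well as CAAAGGTC (0.943%) and TGACTCA. The last of these is in both windows and in 4.95% of all promoters, and it is printed as TGAGTCA where it lies on the other strand. None of the other motifs was in either window, and in all promoters they occur in 0.729% (TGACGTGG) to 17.2% (GGGNGTGG). A match is a description of the letters and says nothing of binding. The motifs were chosen after the sequences were at hand.

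Other mucins gave little more. Of 17 listed, 16 were in the files and 2 were tested, and neither was called. CD164, a small sialomucin of the cell surface and endosomes, had 142 ± 6.67 CPM in controls and 124 ± 20.4 CPM in treated cells (log2 fold change -0.20, edgeR adjusted p = 0.18). OVGP1, oviduct glycoprotein, had 2.41 ± 0.570 and 2.41 ± 0.652 CPM (edgeR adjusted p = 1.0). The large mucins MUC12 and MUC16, both membrane-bound, had no count in any control library. In the treated libraries MUC12 had 6, 4 and 0 counts and MUC16 had 3, 4 and 5. Against a floor of 3 counts over the control group, the ratio was 3.76 for MUC12 and 4.51 for MUC16. These ratios leave out the counting error of the treated counts and are not lower bounds. MUC5B, a gel-forming mucin of the airways, had 4 counts against 13, a ratio of 3.66 with an exact 95% counting interval of 1.13 to 15.4. MUC19 had 8 counts in each group, and MUCL1 had 7 against 12. All of these counts are low, and none of these 5 genes was tested.

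Most of the tested genes for building the O-linked sugars of mucins, enzymes and the chaperone C1GALT1C1, fell. Of 36 listed, 21 were tested, and 12 fell, 4 rose and 5 were not called. Among those that fell, GALNT4 (edgeR adjusted p = 0.026) has uncertain counts. It shares 93.4% of its exonic bases with POC1B-GALNT4 on the same strand. The 16 called are 76.2% of those tested, against 61.6% of all genes, and the median log2 fold change was -1.03 against 0.045 over all genes. The summed level of the list was 1106 to 1157 CPM in controls and 649.1 to 678.9 CPM in treated libraries. Most of that drop came from C1GALT1, which went from 408.5 ± 17.6 to 79.7 ± 7.81 CPM. Of the polypeptide GalNAc-transferases, which attach the first sugar, GALNT6 fell from 74.0 ± 12.98 to 11.1 ± 0.313 CPM (log2 fold change -2.74, edgeR adjusted p = 2.0e-09).

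The next step, addition of galactose to make core 1, is carried out by C1GALT1, which needs the chaperone C1GALT1C1. C1GALT1 had 414.5, 422.3 and 388.6 CPM in controls and 88.3, 73.0 and 77.8 CPM in treated libraries, far apart and tight within each group. Its log2 fold change was -2.36 (SE 0.11, edgeR adjusted p = 1.2e-09). The chaperone moved the same way, from 28.5 ± 0.536 to 11.1 ± 0.370 CPM (log2 fold change -1.37, edgeR adjusted p = 2.9e-07). ST6GALNAC1, which caps the first sugar with sialic acid to make sialyl-Tn, fell from 20.02 ± 4.36 to 0.622 ± 0.233 CPM, or by 4.96 on the log2 scale (SE 0.27, edgeR adjusted p = 2.8e-09).

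Branching enzymes went both ways. GCNT3, the mucin-type enzyme that makes core 2 and core 4 branches, had 10.3, 15.1 and 18.5 CPM in controls and 114.8, 112.9 and 128.4 CPM in treated libraries. It rose by 3.02 on the log2 scale (SE 0.17, edgeR adjusted p = 5.2e-09). GCNT1, the core 2 enzyme of wider distribution, fell from 15.7 ± 1.56 to 2.27 ± 0.765 CPM (log2 fold change -2.78, edgeR adjusted p = 1.0e-07). B3GNT3, which extends core 1, rose from 23.6 ± 3.89 to 91.8 ± 7.55 CPM (edgeR adjusted p = 2.2e-08). GALNT4, C1GALT1C1, GCNT1 and B3GNT3 were chosen after their values were seen.

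**Figure D2:**
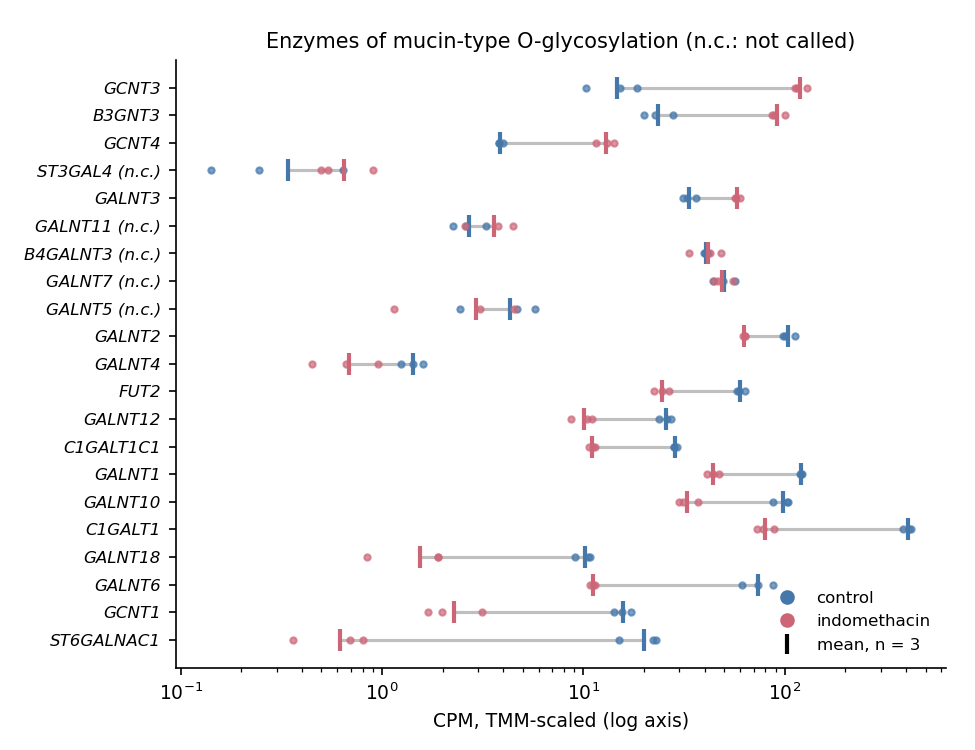
Level of the 21 tested genes of mucin-type O-glycosylation, enzymes and the chaperone C1GALT1C1, in each library (CPM, TMM-scaled, log axis). Genes are ordered by log2 fold change, with a bar at each mean of 3 libraries. The 5 genes marked n.c. were not called. C1GALT1 lies between 388.6 and 422.3 CPM in controls and between 73.0 and 88.3 CPM in treated libraries, and GCNT3 moves the opposite way.

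Genes for the partners, folding and release of mucus were called in both directions. Of 30 listed, 18 were tested, and 7 rose, 7 fell and 4 were not called, with a median log2 fold change of -0.04. The share called was 77.8%, against 61.6% of all genes. The balance was not stable, with 5 to 8 called higher and 6 to 10 called lower across the alternative analyses. SYTL2, a Rab27 effector that docks secretory granules, fell from 90.0 ± 7.79 to 15.4 ± 6.40 CPM (log2 fold change -2.54, edgeR adjusted p = 1.9e-07). UNC13D, which primes granules for fusion, rose from 102.8 ± 2.26 to 203.1 ± 39.1 CPM (log2 fold change 0.98, edgeR adjusted p = 2.1e-05). ANO1, a calcium-activated chloride channel, rose from 8.77 ± 1.18 to 28.0 ± 4.52 CPM (log2 fold change 1.68, edgeR adjusted p = 5.5e-07). DMBT1, a secreted mucosal scavenger protein, fell from 9.80 ± 3.05 to 1.55 ± 0.652 CPM (log2 fold change -2.65, edgeR adjusted p = 4.6e-06).

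Of 11 genes listed as trefoil receptors or as possible sheddases of membrane mucins, 5 were tested, all of them proteases. All 5 were called, 1 higher and 4 lower, beside 61.6% called over all genes. No listed receptor was tested. ADAM17, a sheddase known to release the MUC1 ectodomain, was the exception and rose from 48.1 ± 0.419 to 135.9 ± 32.0 CPM (log2 fold change 1.498, edgeR adjusted p = 9.7e-07). Its exons share 12.3% of their bases with IAH1 on the opposite strand, and the strand setting of the counting was not given in the sources used here. MMP14, another protease known to shed MUC1, fell from 190.8 ± 35.04 to 121.2 ± 5.95 CPM (log2 fold change -0.66, edgeR adjusted p = 5.9e-04). ST14, the membrane serine protease matriptase, fell from 277.5 ± 28.6 to 138.2 ± 11.9 CPM (edgeR adjusted p = 4.0e-06), and BACE2, an aspartyl protease, from 77.3 ± 0.188 to 48.7 ± 12.7 CPM (edgeR adjusted p = 1.6e-03). CXCR4, reported as a receptor for TFF2, had 14, 15 and 6 counts in controls and 0, 2 and 2 in treated libraries and was not tested.

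Transcription factors of mucous and gastrointestinal lineages were called in 65.2% of cases, near the 61.6% of all genes. Of 26 listed, 23 were tested, and 5 rose, 10 fell and 8 were not called. BHLHA15 (also called MIST1), a factor of secretory cells, had 1.08, 1.28 and 1.17 CPM in controls and 24.7, 42.8 and 48.1 CPM in treated libraries. The log2 fold change was 5.02 (SE 0.26, edgeR adjusted p = 2.2e-09), but 25.6% of its exonic bases overlap TECPR1 on the opposite strand. KLF4, which promotes goblet and surface cell differentiation, rose from 9.40 ± 2.33 to 76.5 ± 5.10 CPM (log2 fold change 3.03, edgeR adjusted p = 2.3e-09).

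In the other direction, EHF, an epithelial ETS factor, fell from 26.1 ± 8.74 to 0.768 ± 0.494 CPM (log2 fold change -5.06, edgeR adjusted p = 3.8e-08). GATA4, a factor of the gastric epithelium, fell from 71.8 ± 4.50 to 28.3 ± 0.273 CPM (log2 fold change -1.34, edgeR adjusted p = 9.2e-08). SPDEF, a goblet cell factor named here after its values were seen, fell from 3.38 ± 0.382 to 0.484 ± 0.208 CPM (log2 fold change -2.82, edgeR adjusted p = 7.9e-06).

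**Figure D3:**
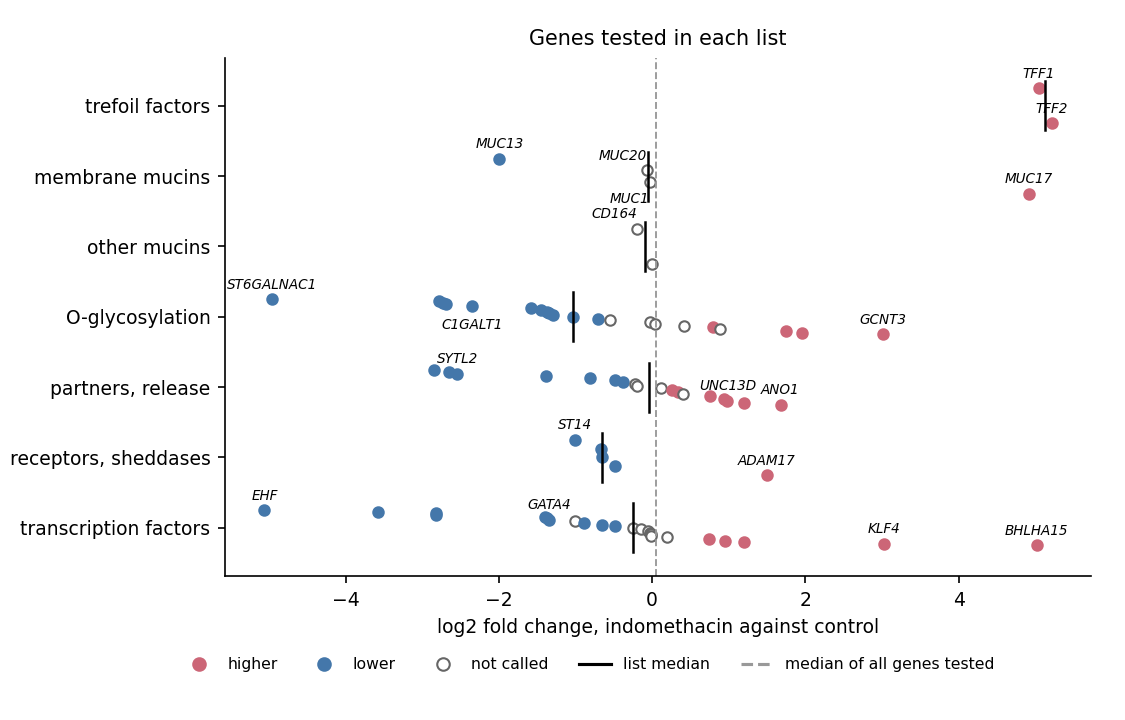
Log2 fold change (indomethacin against control) of each tested gene in the lists of members and related genes, with a line at each list's median and a dashed line at 0.045, the median of all genes tested. TFF1, TFF2 and MUC17 lie near 5, and the O-glycosylation genes lie mostly below 0.

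Markers showed epithelial libraries in both groups. EPCAM and the keratins were high throughout. The summed level of the epithelial list, mostly keratins, was 3507 to 4040 CPM in controls and 3002 to 3284 CPM in treated libraries. Of its 7 genes 5 were called, CDH1 and ESRP1 higher and EPCAM, KRT8 and CDH17 lower. KRT8 and KRT18 lie on opposite strands and share 7.6% and 17.1% of their exonic bases with each other. CDH1 was low, at 6.28 ± 1.54 CPM in controls and 17.9 ± 2.14 CPM in treated cells. Of 8 markers of gastric pit and neck cells, 4 were tested and 3 called, and they did not move with TFF1 and TFF2 as a group. CAPN8 rose from 24.4 ± 8.21 to 139.3 ± 13.6 CPM, whereas CTSE fell from 646.1 ± 172.9 to 378.6 ± 57.6 CPM and AQP5 from 1.43 ± 0.655 to 0.122 ± 0.0271 CPM. The summed level of that list was 463.5 to 781.6 CPM in controls and 489.2 to 576.4 CPM in treated libraries.

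Of 8 markers of parietal and chief cells, 3 were tested and all fell. The summed level was 24.5 to 28.8 CPM in controls and 5.70 to 6.41 CPM in treated libraries. PGC made up most of it, with 20.8 ± 1.17 CPM in controls and 4.50 ± 0.0429 CPM in treated cells. Among those not tested, ATP4A had 13 counts in controls and 26 in treated libraries, with overlapping groups. ATP4B, PGA3, PGA4 and PGA5 had fewer counts in treated libraries. Of 9 enterocyte and Paneth cell markers, 3 were tested and 2 fell, VIL1 and LYZ. The summed level was 824.4 to 1586 CPM against 145.1 to 152.8 CPM, nearly all of it LYZ and VIL1. LYZ went from 1102 ± 435.9 to 121.7 ± 3.84 CPM. FABP1, FABP2, SI, APOA4, DEFA5 and DEFA6 had no more than 2 counts in any library. VIL1, which shapes the brush border that carries MUC17, thus moved opposite to MUC17, from 207.6 ± 24.3 to 25.3 ± 7.88 CPM, with 44.2% of its exonic bases shared with USP37 on the opposite strand. The fibroblast list was summed at 42.5 to 48.8 CPM against 14.6 to 20.2 CPM, and 3 of its 7 genes were tested and called. PDGFRA fell from 37.6 ± 2.53 to 6.05 ± 3.94 CPM and made up most of the sum, PDGFRB also fell, and COL1A1 rose from 4.93 ± 1.32 to 10.03 ± 0.95 CPM. The immune and endothelial list was carried by LYZ, and its defining genes PTPRC (15 counts against 5) and CD3E (5 against 1) were near 0. Mitochondrial transcripts took 22.8 to 26.8% of counts in controls and 16.7 to 19.7% in treated libraries. The part of any of these shifts in the members' changes was not tested.

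Genes next to the members went in both directions. Within 100 kb lay 58 other genes, of which 25 were tested, 8 rose, 6 fell and 11 were not called, so that 56.0% were called against 61.6% of all genes, with a median log2 fold change of 0.124. Around TFF1 and TFF2 no other gene had enough reads to be tested, among them TMPRSS3, a serine protease gene with 46 counts over the 6 libraries, and the lipid transporter gene ABCG1 with 20. Near MUC13 the integrin gene ITGB5 (log2 fold change -0.09, edgeR adjusted p = 0.52) and HEG1, a mucin-like membrane receptor gene (-0.21, adjusted p = 0.24), were tested and not called.

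Near MUC17, TRIM56, a ubiquitin ligase, rose from 32.4 ± 3.68 to 77.2 ± 6.44 CPM (log2 fold change 1.25, edgeR adjusted p = 6.3e-07), and AP1S1, a clathrin adaptor subunit, fell from 50.8 ± 9.31 to 31.2 ± 0.902 CPM (-0.70, adjusted p = 3.4e-04). Near the gel-forming mucins, AP2A2, 0.578 kb from MUC6, rose (log2 fold change 0.66, edgeR adjusted p = 4.8e-04), CHID1 fell (-1.10, adjusted p = 5.5e-06), and TOLLIP was called higher (0.42, adjusted p = 0.029).

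The gene-dense interval around MUC1 held 15 tested neighbours. EFNA3 fell by 1.17 and MTX1P1 by 0.56 on the log2 scale. MTX1P1 is a near-identical pseudogene of MTX1, so its counts are uncertain. KRTCAP2 (log2 fold change 1.06), THBS3-AS1 (1.85), THBS3 (0.55) and HCN3 (0.65) were called higher, with edgeR adjusted p between 7.2e-03 and 0.022. These 4 and TOLLIP were no longer called without indomethacin replicate 2. TOLLIP, THBS3 and HCN3 also lost the call without control replicate 1, TOLLIP and HCN3 without control replicate 2 and with no filter on low counts, and THBS3 without control replicate 3. The 2 tested neighbours of MUC20 were not called.

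**Figure D4:**
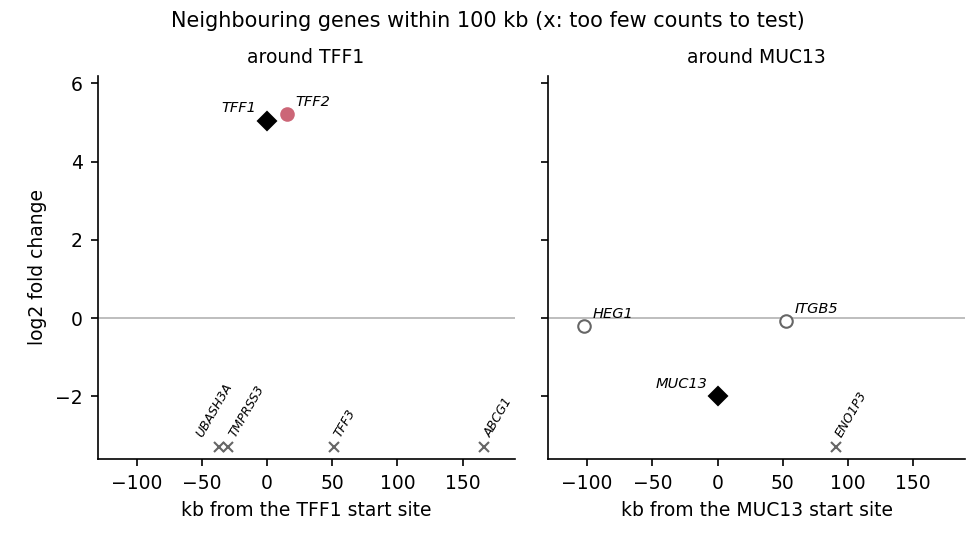
Log2 fold change (indomethacin against control) of genes whose body lies within 100 kb of TFF1 or MUC13, against the distance between start sites in kb. Red points are called higher, open points not called, crosses at the bottom untested and without a value, and the diamond is the central gene, with genes that have no count or no symbol left out. Near TFF1 only TFF2 carries a value, also near 5, and the 2 tested neighbours of MUC13 lie close to 0.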

How the data were processed

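Total RNA of AGS cells was sequenced with a stranded kit after depletion of ribosomal RNA, per the labels' protocols, in 3 control and 3 indomethacin libraries. The authors deposited raw counts per gene and library, with exon coordinates, strand and length. FastQC 0.11.7, cutadapt 1.16, HISAT2 2.1.0, SAMtools, DESeq2, featureCounts and the build hg38 are named per the submitters' processing notes. The counter's strand setting and its handling of reads with several placements are not given in the sources used here.

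Of 60607 lines per table, 3 were left out because 1 gene's line was broken. Total counts were between 17535435 and 23221077 per library, and floors and intervals cover counting error only. No 2 libraries of a group agreed within sampling noise, with a chi-square of 7.91 to 25.9 for each degree of freedom, and all 6 counted as samples. Genes passing filterByExpr were scaled by TMM and tested with edgeR 4.0.16 (R 4.3.3), glmQLFit then glmQLFTest, in a model of group alone. Standard errors follow from the test statistic. Ratios of low counts have exact binomial 95% intervals. On counts simulated over 16251 genes, 66 or 67 genes were changed at each fold, none with few control counts. The same variability was set for every gene. The share of changed genes recovered was 23.9% for a 1.5-fold, 92.5% for a 2-fold and 98.5% for a 4-fold change, with 7 false calls among 150. In the data 61.6% of genes tested were called, and TFF2 and MUC17 had 0 to 2 counts in each control library. Neither so wide a change nor changed genes with so few counts were simulated, so the shares do not carry over to them. Alternatives were limma 3.58.1 (voom), DESeq2 1.42.0, other scalings and filters, a replicate block and leaving out each library.

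Members, lists and tests were chosen with earlier results of these data known. Beside the members, the text names up to 4 called genes per list with the smallest adjusted p and a mean of 1 CPM or more, other mucins with 10 or more counts and called neighbours within 100 kb, some of which are not reported here. Other genes are marked as chosen later, are cell type markers or are given as not called or not tested. Repeats and coding sequences were read from GENCODE 29 transcripts and promoters from RefSeq.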

Additional observations from a re-analysis of the deposited data

How the results depend on the processing

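Across 14 alternatives, TFF1, TFF2, MUC13 and MUC17 kept their direction and their call wherever they were tested (MUC17 and MUC20 were not with a filter of 1 CPM in 3 libraries). Their log2 fold changes ranged from 4.67 to 5.90 for TFF1, 4.68 to 6.04 for TFF2, 4.40 to 5.25 for MUC17 and -2.17 to -1.77 for MUC13. MUC1, MUC20 and OVGP1, none of which was called, changed sign. MUC1 gave 0.09 with upper-quartile factors, 0.017 with the filter of 1 CPM and -0.42 to 0.195 without 1 library each. MUC20 gave 0.051 with upper-quartile factors and -0.44 to 0.10 without 1 library each. OVGP1 gave -0.002 with limma-voom, -0.008 with DESeq2, -0.007 with RLE factors, -0.005 without mitochondrial and small RNAs, -0.106 with no filter, -0.013 with the replicate block and -0.251 to 0.176 without 1 library each. The cause was not tested.

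With no filter, 2 other mucins were called higher and 1 lower, and 2 receptors or sheddases higher. TFF3, MUC2, MUC5AC and MUC6 were then tested and not called (edgeR adjusted p 0.38 to 0.50). Without 1 library each, called neighbours that rose numbered 4 to 9, the fewest without indomethacin replicate 2, and other mucins called lower numbered 0 to 1, which was CD164 without indomethacin replicate 1 (adjusted p = 0.021). Upper-quartile factors moved the median of all genes from 0.045 to 0.162 and the split of calls from 5264 higher and 5327 lower to 6124 and 4686. Of 32 named genes tested, 25 kept direction and call in every alternative.

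The labels do not say whether the replicate numbers pair the samples. Same-numbered libraries correlated at 0.0233, 0.0117 and 0.132 in their deviations from the group means. Control replicate 2 and indomethacin replicate 1 correlated best with each other, at 0.131, and the other libraries each with its own number. With 3 libraries per group, these values cannot show whether the samples were paired. With the replicate block, 5249 genes were called higher and 5352 lower. Depth limits TFF3 and the gel-forming mucins. MUC5AC and MUC6 lay on both sides of the 3-count level, TFF3 at or below it and MUC2 below it.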
